A study of Mus musculus with 62 samples.

Results

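Aldh1a2, Tmem176a, Tmem176b, Atp9a, Piezo1 and Wfdc17 are 6 genes of mouse gastrocnemius muscle whose RNA stood higher in mice injected with cachectic melanoma cells, 2 weeks after injection, the earliest time sampled. They were chosen by their measured levels at 2 weeks, from genes outside the STAT and complement families, and are 6 of the 47643 gene symbols in the deposited table. The 2-week values therefore describe how the genes were selected and carry no test, and the question asked of the later libraries is whether the difference was still there at 4, 6 and 8 weeks.

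Gastrocnemius, a calf muscle, was taken from female mice that were 2 months old at injection, and its poly(A) RNA was sequenced. CAC mice had received cachectic melanoma cells, NCAC mice non-cachectic melanoma cells, and Con mice a mock injection, and each group was sampled at 2, 4, 6 and 8 weeks. There were 5 libraries per group and week and 7 for CAC at 8 weeks, 62 in all. The strain is not settled, since C57BL/6J stands in the sample labels and nude mice in the series text, and the labels name neither the melanoma lines nor any pooling of mice. Values are TPM, the share of a library's transcripts corrected for gene length. Differences are on the log2(TPM + 1) scale, which understates the change of low genes.

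The 6 genes have unlike roles. Aldh1a2 makes retinoic acid, the ligand of nuclear retinoid receptors, from retinal, and is best known from embryonic patterning. Tmem176a and Tmem176b encode related membrane proteins of the MS4A superfamily, known from monocytes and dendritic cells, and the genes lie side by side. Atp9a belongs to the P4-ATPases, membrane pumps that move lipids between leaflets, and works in endosomal recycling. Piezo1 is a cation channel opened by membrane stretch, known from endothelium, red blood cells and, in muscle, satellite cells. Wfdc17 is a small secreted protein with a whey acidic protein domain that is known from activated mouse macrophages and microglia.

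On build GRCm38 (GENCODE M21) Aldh1a2 spans chr9:71215789-71296243 on the plus strand, Atp9a chr2:168634438-168742409 on the minus strand, and Wfdc17 chr11:83703991-83706268 on the plus strand. Tmem176b on the minus strand (chr6:48833818-48841496) and Tmem176a on the plus strand (chr6:48840919-48847071) start head to head. Their spans share 578 bases and their exons share 81, which is 2.13% of the exon bases of Tmem176a and 3.42% of those of Tmem176b. Piezo1 (chr8:122481698-122551329, minus strand) overlaps Ctu2 on the opposite strand, over 24.6% of the exon bases of Piezo1. The kit marks strand but the strand setting of the counting is not given in the sources used here, so reads in these stretches may have been shared. Ctu2, a gene of transfer RNA modification, ranged over 2.25 to 7.82 TPM. The predicted gene Gm20388 spans the whole of Piezo1 on the opposite strand without sharing an exon base.

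The start sites of the Tmem176 pair are shown because the levels of both genes ran in parallel. These RefSeq windows (GRCm38.p6) run from 250 bases before to 50 bases after a start site. They are 1 of 2 windows of Tmem176a and 1 of 3 of Tmem176b, and cover chr6:48841233-48841532 on the plus strand for Tmem176a and chr6:48841325-48841624 on the minus strand for Tmem176b. The capitals mark the 208 bases that both windows hold, read on opposite strands, so that each gene's start lies within the upstream window of the other.
Tmem176a: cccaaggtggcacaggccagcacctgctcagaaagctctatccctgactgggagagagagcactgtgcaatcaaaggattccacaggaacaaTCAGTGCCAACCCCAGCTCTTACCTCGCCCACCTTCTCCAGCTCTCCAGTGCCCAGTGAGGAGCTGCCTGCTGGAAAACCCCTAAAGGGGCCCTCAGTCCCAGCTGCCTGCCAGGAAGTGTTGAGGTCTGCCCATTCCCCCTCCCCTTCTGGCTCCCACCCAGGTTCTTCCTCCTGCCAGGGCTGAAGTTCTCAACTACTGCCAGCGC
Tmem176b: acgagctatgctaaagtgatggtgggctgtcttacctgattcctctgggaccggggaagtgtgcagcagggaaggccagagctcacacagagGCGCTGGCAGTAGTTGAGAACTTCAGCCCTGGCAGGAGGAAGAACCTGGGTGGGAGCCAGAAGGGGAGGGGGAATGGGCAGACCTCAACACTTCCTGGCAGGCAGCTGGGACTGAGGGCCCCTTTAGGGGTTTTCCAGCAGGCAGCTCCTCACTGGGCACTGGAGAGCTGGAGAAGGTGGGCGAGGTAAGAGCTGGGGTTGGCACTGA

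Piezo1 and Wfdc17 each have 1 RefSeq window, and these are the windows of the 6 genes that hold the letters of the TATA motif (TATAAA, in capitals). Both strands were searched. The windows cover chr8:122551280-122551579 on the minus strand for Piezo1 and chr11:83703806-83704105 on the plus strand for Wfdc17. In the Piezo1 window the motif lies 24 to 19 bases before the start. In the Wfdc17 window it overlaps the RefSeq start itself, which lies inside the longer GENCODE transcript.
Piezo1: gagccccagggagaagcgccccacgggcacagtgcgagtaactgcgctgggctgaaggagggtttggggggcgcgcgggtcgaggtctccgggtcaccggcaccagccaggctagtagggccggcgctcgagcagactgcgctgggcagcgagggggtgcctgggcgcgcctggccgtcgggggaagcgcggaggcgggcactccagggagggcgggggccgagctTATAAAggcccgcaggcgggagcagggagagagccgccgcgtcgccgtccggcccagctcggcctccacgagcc
Wfdc17: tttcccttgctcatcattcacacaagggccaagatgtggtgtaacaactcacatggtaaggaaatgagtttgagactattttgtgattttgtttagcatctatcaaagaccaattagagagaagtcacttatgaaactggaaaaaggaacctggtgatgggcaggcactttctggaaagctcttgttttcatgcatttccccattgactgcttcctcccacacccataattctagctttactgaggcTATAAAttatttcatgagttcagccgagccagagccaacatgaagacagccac
TATAAA occurs in 13.6% of all 32851 mouse windows. The STAT motif TTCNNNGAA, found in 8.30% of windows, and the AP-1 motif TGANTCA, found in 7.81%, matched 0 of the 12 windows of the 6 genes, which says only that these letters are not in these stretches. The windows differ in base composition: the Aldh1a2 window holds 50 CpG, the Piezo1 window 34 and 1 of the Atp9a windows 65, against a median of 7 over all windows, while the Tmem176 windows hold 1 to 5 and the Wfdc17 window 1.

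At 2 weeks, the time that chose them, the 6 genes were higher in CAC than in Con by 1.24 (Piezo1) to 2.01 (Wfdc17) on the log2 scale. By size these differences stood between 9th and 48th of the 12364 genes tested. All CAC libraries lay above all Con libraries for 5 genes, as for 5.01% of all genes, and Wfdc17 overlapped. Against NCAC the groups were separate for 4 genes, as for 9.27% of all genes, with overlap in Aldh1a2 and Wfdc17. These counts describe the choice of the genes. NCAC overlapped Con for all 6.

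The difference was present at each later time. All 6 genes were called higher in CAC than in Con at 4, 6 and 8 weeks (limma, adjusted p under 0.05), when 23%, 51.8% and 65.3% of all genes were called higher. They were also all called higher in CAC than in NCAC, against 18.1%, 64.1% and 67.5% of all genes. The median log2 difference of the 6 genes from Con was 2.13, 2.51 and 2.82 at 4, 6 and 8 weeks, beside a median over all genes tested of 0.17, 0.28 and 0.36. Rescaling each library by its median ratio moved the median of all genes by -0.16, -0.27 and -0.34, and all 6 genes were still called higher at each time. After rescaling, 7.43%, 14.4% and 22.9% of all genes were called higher in CAC than in Con. The balance of all calls turned on this step: 90.6%, 90.5% and 92.2% of the genes called against Con were higher before it and 48.8%, 45.6% and 50.6% after it. Against NCAC the shares were 91.9%, 93.2% and 93.4% before it and 36.7%, 47.6% and 50.3% after it. At 8 weeks 41.2% of all TPM came from the top 20 genes in CAC, against 51.3% in NCAC and 51.5% in Con, and the part of this share in the general shift was not tested.

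**Figure D1:**
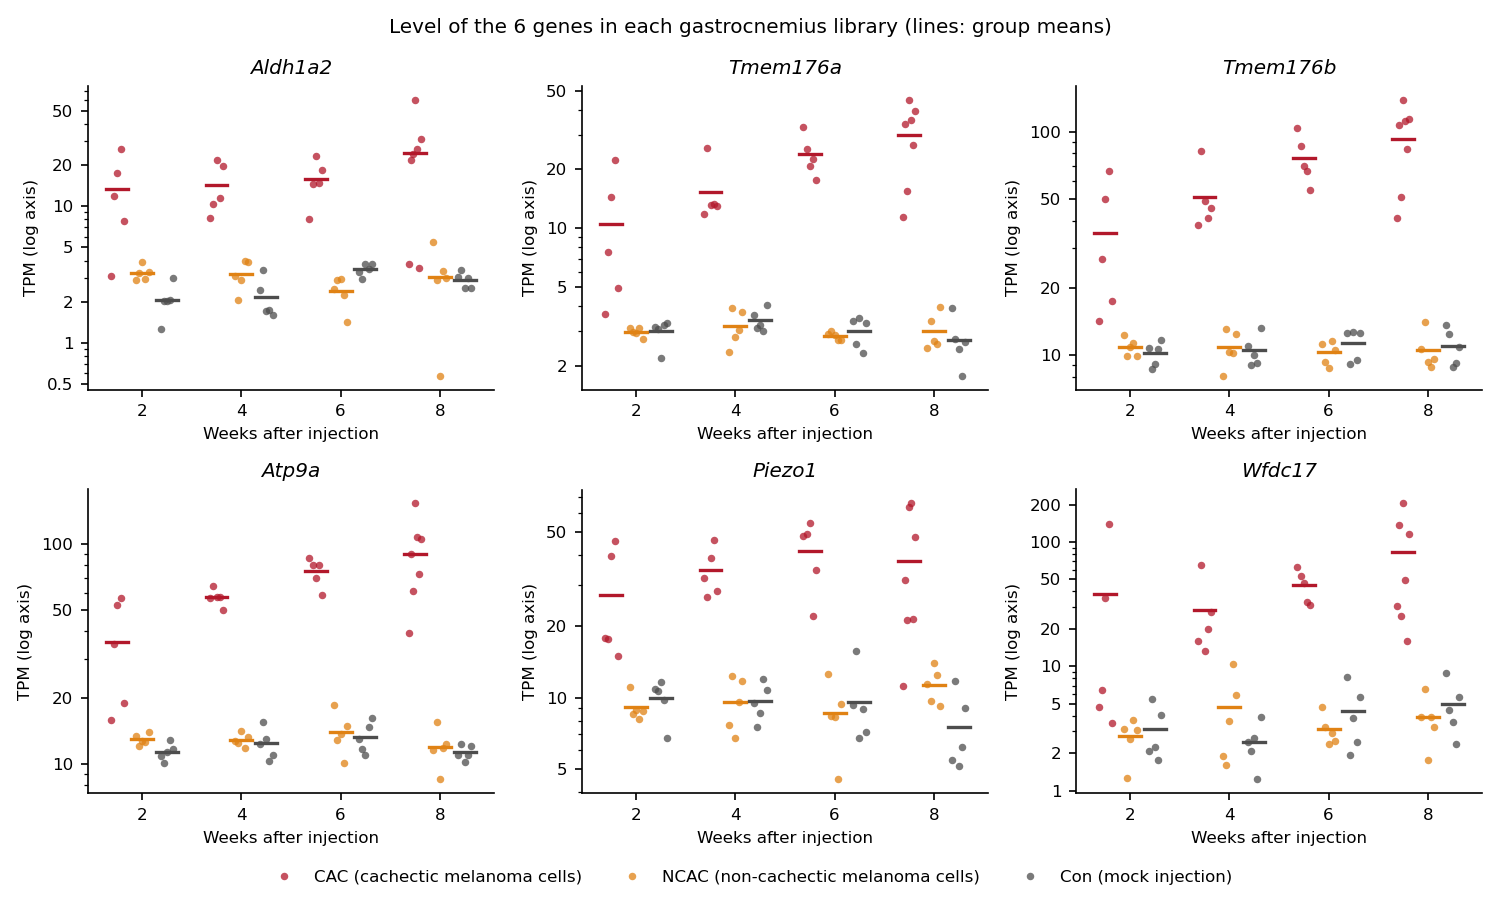
Level of each gene in TPM (log axis) in the 62 libraries by weeks after injection. Points are libraries in CAC, NCAC and Con from left to right at each week, and lines are group means. CAC libraries stand above the Con libraries of their week for every gene from 4 weeks on, except that the lowest Piezo1 library at 8 weeks (11.2 TPM) lies below the highest Con library (11.7 TPM).

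Aldh1a2 had 3.07, 11.98, 17.6, 26.3 and 7.75 TPM in the CAC libraries at 2 weeks (in replicate order), against 2.86, 3.23, 3.90, 2.95 and 3.29 TPM in NCAC and 1.27, 2.02, 2.02, 2.05 and 2.95 TPM in Con. Replicates 3 and 4 of CAC were high and replicate 1 lay just above the highest Con library. The NCAC mean was also 1.57 times the Con mean at that time, with overlapping groups. Aldh1a2 had 8.23, 10.3, 21.8, 11.5 and 19.7 TPM in CAC at 4 weeks, against 3.09, 2.06, 2.89, 3.98 and 3.91 TPM in NCAC and 2.42, 3.43, 1.70, 1.73 and 1.58 TPM in Con. The 6-week levels were 8.10, 14.5, 23.3, 14.8 and 18.3 TPM in CAC, 2.47, 2.86, 2.91, 2.25 and 1.43 TPM in NCAC and 3.31, 2.93, 3.75, 3.50 and 3.76 TPM in Con. At both times every CAC library was above every other library. Over the 7 CAC libraries at 8 weeks Aldh1a2 had 3.52 TPM at the lowest, 24.1 TPM at the median and 60.2 TPM at the highest, against 5.45, 2.88, 0.572, 3.37 and 2.99 TPM in NCAC and 3.03, 3.43, 2.51, 2.96 and 2.54 TPM in Con. Replicates 1 and 6 of CAC (3.75 and 3.52 TPM) stood just above the highest Con library (3.43 TPM) and below the highest NCAC library (5.45 TPM), while the other 5 CAC libraries had at least 21.8 TPM. The log2 difference of CAC from Con was 1.98 at 2 weeks (not tested), 2.21 at 4 weeks (SE 0.41, adjusted p = 0.000207), 1.85 at 6 weeks (SE 0.41, adjusted p = 0.000339) and 2.23 at 8 weeks (SE 0.38, adjusted p = 3.08e-06) by limma. Between the tested weeks it moved by less than the SE of that move.

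Tmem176b was the more abundant gene of the neighbouring pair. It had 14.3, 26.9, 49.8, 66.7 and 17.5 TPM in CAC at 2 weeks, against 12.3, 9.87, 10.8, 11.3 and 9.94 TPM in NCAC and 10.7, 8.67, 9.14, 10.7 and 11.7 TPM in Con. Replicates 1 and 5 of CAC were close to the other groups and replicates 3 and 4 far above them. Its 4-week levels were 38.1, 82.2, 49.1, 41.1 and 45.4 TPM in CAC, 8.09, 13.0, 10.3, 10.2 and 12.5 TPM in NCAC and 10.9, 9.07, 10.1, 9.27 and 13.3 TPM in Con. Tmem176b had 104, 85.9, 70.5, 66.6 and 54.5 TPM in CAC at 6 weeks, against 11.3, 9.31, 8.80, 11.6 and 10.6 TPM in NCAC and 12.6, 9.15, 12.7, 9.51 and 12.6 TPM in Con. No CAC library came near the other groups at these times. At 8 weeks it had 41.0 TPM at the lowest, 107 TPM at the median and 139 TPM at the highest in CAC, against 10.7, 14.0, 9.36, 8.83 and 9.62 TPM in NCAC and 13.6, 12.4, 8.86, 9.20 and 10.8 TPM in Con, again with no overlap. The log2 difference from Con was 1.46 at 2 weeks (not tested), 2.14 at 4 weeks (SE 0.25, adjusted p = 5.44e-08), 2.63 at 6 weeks (SE 0.25, adjusted p = 5.10e-11) and 2.87 at 8 weeks (SE 0.23, adjusted p = 1.34e-13) by limma.

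Tmem176a, on the other strand of the same locus, ran in parallel at a lower level. It had 3.66, 7.56, 14.5, 22.2 and 4.96 TPM in CAC at 2 weeks, against 3.12, 2.96, 2.94, 3.12 and 2.71 TPM in NCAC and 3.14, 3.06, 2.20, 3.23 and 3.31 TPM in Con. The order of the CAC libraries was that of Tmem176b. Tmem176a had 11.8, 25.7, 13.2, 13.2 and 13.0 TPM in CAC at 4 weeks, against 2.34, 3.91, 2.79, 3.05 and 3.77 TPM in NCAC and 3.601, 3.10, 3.20, 2.99 and 4.07 TPM in Con. At 6 weeks the levels were 32.6, 25.4, 20.7, 22.7 and 17.6 TPM in CAC, 2.91, 2.98, 2.86, 2.70 and 2.69 TPM in NCAC and 3.37, 2.57, 3.48, 2.30 and 3.31 TPM in Con. Replicate 2 of CAC at 4 weeks stood apart upward for both genes of the pair. At 8 weeks Tmem176a had 11.3 TPM at the lowest, 34.1 TPM at the median and 45.1 TPM at the highest in CAC, against 2.44, 3.36, 2.67, 2.59 and 3.97 TPM in NCAC and 3.92, 2.73, 2.41, 1.77 and 2.62 TPM in Con. The log2 difference from Con was 1.29 at 2 weeks (not tested), 1.85 at 4 weeks (SE 0.26, adjusted p = 2.54e-06), 2.61 at 6 weeks (SE 0.26, adjusted p = 1.25e-10) and 2.95 at 8 weeks (SE 0.24, adjusted p = 1.34e-13) by limma.

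Over all 62 libraries together, the ratio of Tmem176b to Tmem176a varied less than either level. The ratio was 2.88 to 3.89 over the 22 CAC libraries, 2.42 to 4.38 over the 20 NCAC libraries and 2.83 to 5.19 over the 20 Con libraries, with medians of 3.22, 3.57 and 3.55. Within NCAC and within Con it varied about as much as Tmem176b, which ran from 8.09 to 14.0 TPM and from 8.67 to 13.6 TPM. Within weeks the ratio was lower in CAC than in Con at 6 and 8 weeks: at 6 weeks it was 2.94 to 3.40 in CAC and 3.56 to 4.13 in Con, with no overlap, and at 8 weeks the median was 3.13 in CAC and 4.13 in Con. At 4 weeks the CAC median (3.23) was not below that of Con (3.10), and these ratios were not tested. The exons the genes share are a small part of each, and the share of reads that the counting could have moved between them was not tested.

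**Figure D2:**
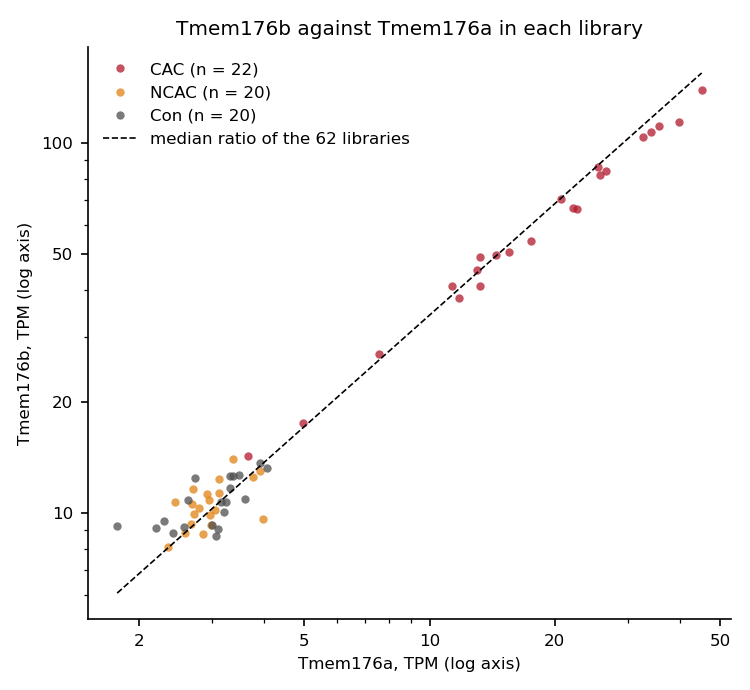
Tmem176b against Tmem176a in TPM (log axes), 1 point per library, for CAC, NCAC and Con. The dashed line is the median ratio of the 62 libraries (3.43). CAC libraries reach 45.1 TPM of Tmem176a and 139 TPM of Tmem176b, and those of 6 weeks all lie below the line, at ratios of 2.94 to 3.40.

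Atp9a had the least spread among the CAC libraries at 4 weeks. It started with 15.8, 35.0, 52.7, 56.5 and 19.0 TPM in CAC at 2 weeks, against 13.3, 11.98, 12.7, 12.6 and 13.9 TPM in NCAC and 10.8, 10.1, 11.4, 12.8 and 11.6 TPM in Con. The lowest CAC library was above every library of the other groups of that week. Its levels at 4 weeks were 57.1, 64.7, 57.1, 57.5 and 50.1 TPM in CAC, 12.7, 12.4, 14.0, 11.8 and 13.3 TPM in NCAC and 12.3, 15.4, 12.9, 10.3 and 10.99 TPM in Con. Atp9a had 86.6, 79.9, 69.9, 80.5 and 58.6 TPM in CAC at 6 weeks, against 18.5, 12.9, 13.7, 10.03 and 14.9 TPM in NCAC and 13.0, 11.7, 11.01, 14.7 and 16.1 TPM in Con. The highest library outside CAC, an NCAC library at 6 weeks (18.5 TPM), was below every CAC library of weeks 4 to 8. At 8 weeks Atp9a had 39.2 TPM at the lowest, 90.5 TPM at the median and 153 TPM at the highest in CAC, against 11.5, 15.5, 8.49, 11.8 and 12.2 TPM in NCAC and 10.98, 12.3, 10.1, 10.9 and 12.04 TPM in Con. The log2 difference from Con was 1.41 at 2 weeks (not tested), 2.13 at 4 weeks (SE 0.22, adjusted p = 9.06e-10), 2.41 at 6 weeks (SE 0.22, adjusted p = 1.06e-11) and 2.78 at 8 weeks (SE 0.21, adjusted p = 3.59e-15) by limma, the smallest SE of the 6 genes.

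Piezo1 had the smallest difference of the 6 genes at 2 weeks. It had 17.9, 17.7, 39.5, 45.8 and 14.9 TPM in CAC, against 11.05, 8.56, 8.86, 8.14 and 8.81 TPM in NCAC and 10.9, 10.6, 11.6, 9.80 and 6.77 TPM in Con. At this time replicates 1, 2 and 5 of CAC were close together and above both other groups. Piezo1 had 31.9, 26.7, 38.9, 46.4 and 28.3 TPM in CAC at 4 weeks, against 7.65, 12.3, 6.77, 9.55 and 11.7 TPM in NCAC and 9.50, 7.48, 8.57, 12.01 and 10.7 TPM in Con. Levels at 6 weeks were 48.2, 48.9, 54.7, 22.2 and 34.7 TPM in CAC, 12.6, 8.38, 8.32, 4.52 and 9.42 TPM in NCAC and 9.26, 15.7, 6.75, 8.93 and 7.14 TPM in Con. The groups were separate at both times. At 8 weeks Piezo1 had 11.2 TPM at the lowest, 31.3 TPM at the median and 66.1 TPM at the highest in CAC, against 11.4, 9.69, 14.0, 12.5 and 9.22 TPM in NCAC and 5.43, 11.7, 5.13, 6.16 and 9.02 TPM in Con. Replicate 1 of CAC, the lowest, lay below the highest library of both other groups, and the other 6 lay above them. The log2 difference from Con was 1.24 at 2 weeks (not tested), 1.72 at 4 weeks (SE 0.30, adjusted p = 0.000113), 2.01 at 6 weeks (SE 0.30, adjusted p = 1.93e-06) and 2.01 at 8 weeks (SE 0.28, adjusted p = 8.81e-08) by limma. Against NCAC it was 1.74, 2.14 and 1.43 (SE 0.30, 0.30 and 0.28; limma adjusted p = 0.000139, 1.89e-07 and 2.23e-05). The difference of Ctu2 between CAC and Con was 0.18 (SE 0.14, adjusted p = 0.321), 0.37 (SE 0.14, adjusted p = 0.0203) and 0.55 (SE 0.13, adjusted p = 0.00018) at these weeks, and its part in the Piezo1 value was not tested.

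Wfdc17, the shortest of the 6 genes with 533 exon bases, had the largest log2 differences of the 6 genes, and the widest CAC spread of them at 2 and 4 weeks. Its level at 2 weeks was 4.67, 6.42, 35.3, 139 and 3.48 TPM in CAC, against 3.13, 1.27, 2.59, 3.70 and 3.08 TPM in NCAC and 2.08, 5.43, 2.24, 1.76 and 4.09 TPM in Con. Replicates 1 and 5 of CAC lay below the highest Con library, replicate 2 just above it, and replicate 4 was 40.1 times replicate 5. Without replicate 4 the 2-week log2 difference from Con was 1.22, against 2.01 with it. Wfdc17 had 15.9, 65.2, 13.4, 20.04 and 27.6 TPM in CAC at 4 weeks, against 1.903, 1.62, 3.65, 10.4 and 5.90 TPM in NCAC and 2.46, 2.08, 2.66, 1.24 and 3.91 TPM in Con. By 6 weeks it had 63.2, 53.0, 46.8, 32.9 and 31.4 TPM in CAC, against 4.69, 3.24, 2.38, 2.92 and 2.52 TPM in NCAC and 8.19, 1.94, 3.82, 2.46 and 5.64 TPM in Con. All CAC libraries were then above both other groups. At 8 weeks Wfdc17 had 15.9 TPM at the lowest, 49.4 TPM at the median and 205 TPM at the highest in CAC, against 3.92, 6.62, 1.75, 3.91 and 3.25 TPM in NCAC and 8.85, 4.49, 3.58, 2.37 and 5.66 TPM in Con. The log2 difference from Con was 2.01 at 2 weeks (not tested), 2.89 at 4 weeks (SE 0.57, adjusted p = 0.000363), 3.18 at 6 weeks (SE 0.57, adjusted p = 2.52e-05) and 3.38 at 8 weeks (SE 0.53, adjusted p = 6.09e-07) by limma. The difference from NCAC at 4 weeks was 2.35 (SE 0.57, limma adjusted p = 0.0055), and it missed the threshold without CAC replicate 2 of that week (2.00, adjusted p = 0.0559). By estimate about 14 reads stood behind the lowest Wfdc17 value and 25 behind the lowest Aldh1a2 value, which gives the lowest Wfdc17 value a counting error of 26.7%, and at least 139 reads stood behind each value of the other 4.

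NCAC mice had also received melanoma cells, and all 6 genes were higher in CAC than in NCAC at the tested weeks. The CAC minus NCAC log2 difference of Aldh1a2 was 1.80 at 4 weeks (SE 0.41, adjusted p = 0.00355), 2.26 at 6 weeks (SE 0.41, adjusted p = 9.51e-06) and 2.30 at 8 weeks (SE 0.38, adjusted p = 1.71e-06) by limma. For Tmem176a it was 1.93 at 4 weeks (SE 0.26, adjusted p = 1.13e-06), 2.67 at 6 weeks (SE 0.26, adjusted p = 5.42e-11) and 2.82 at 8 weeks (SE 0.24, adjusted p = 5.74e-13), and for Tmem176b 2.74 at 6 weeks and 2.93 at 8 weeks. Atp9a, with 2.07 at 4 weeks (SE 0.22, adjusted p = 3.10e-09), 2.35 at 6 weeks (SE 0.22, adjusted p = 3.39e-11) and 2.73 at 8 weeks (SE 0.21, adjusted p = 8.14e-15), had the lowest adjusted p of the 6 genes at 4 and 8 weeks. Wfdc17 differed by 3.46 at 6 weeks and 3.65 at 8 weeks (SE 0.57 and 0.53, limma adjusted p = 1.82e-06 and 1.47e-07). At 8 weeks CAC and NCAC overlapped for Aldh1a2 and Piezo1 and were separate for the other 4 genes, as for 24.5% of all genes. At 4 and 6 weeks they were separate for all 6, as for 13.4% and 39.8% of all genes. From Con, CAC was separate for 6, 6 and 5 of the 6 genes at 4, 6 and 8 weeks, and for 15.6%, 28.7% and 25.7% of all genes. Comparisons with NCAC and with Con share the CAC libraries.

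Of the 6 genes, 0 were called between NCAC and Con in either direction at 4, 6 or 8 weeks or averaged over these weeks (limma), where 0% of all genes were called. At an unadjusted p under 0.05 the count was also 0 of the 6, while 224, 909, 139 and 344 of the 12364 genes passed that level. Averaged over the 3 later weeks, NCAC minus Con was between -0.05 (Tmem176b, SE 0.15) and 0.14 (Piezo1, SE 0.18) on the log2 scale, with adjusted p of 0.995 to 1.00. The NCAC ranges over all weeks were 0.572 to 5.45 TPM for Aldh1a2, 2.34 to 3.97 TPM for Tmem176a, 8.09 to 14.0 TPM for Tmem176b, 8.49 to 18.5 TPM for Atp9a, 4.52 to 14.0 TPM for Piezo1 and 1.27 to 10.4 TPM for Wfdc17. In Con they were 1.27 to 3.76, 1.77 to 4.07, 8.67 to 13.6, 10.1 to 16.1, 5.13 to 15.7 and 1.24 to 8.85 TPM in the same order of genes. NCAC and Con libraries overlapped for each gene at each week, except that every NCAC library of Aldh1a2 at 6 weeks (highest 2.91 TPM) lay below every Con library (lowest 2.93 TPM), as it did for 1.89% of all genes. The Aldh1a2 difference at that week was -0.41 (SE 0.41) and was not called by limma.

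**Figure D3:**
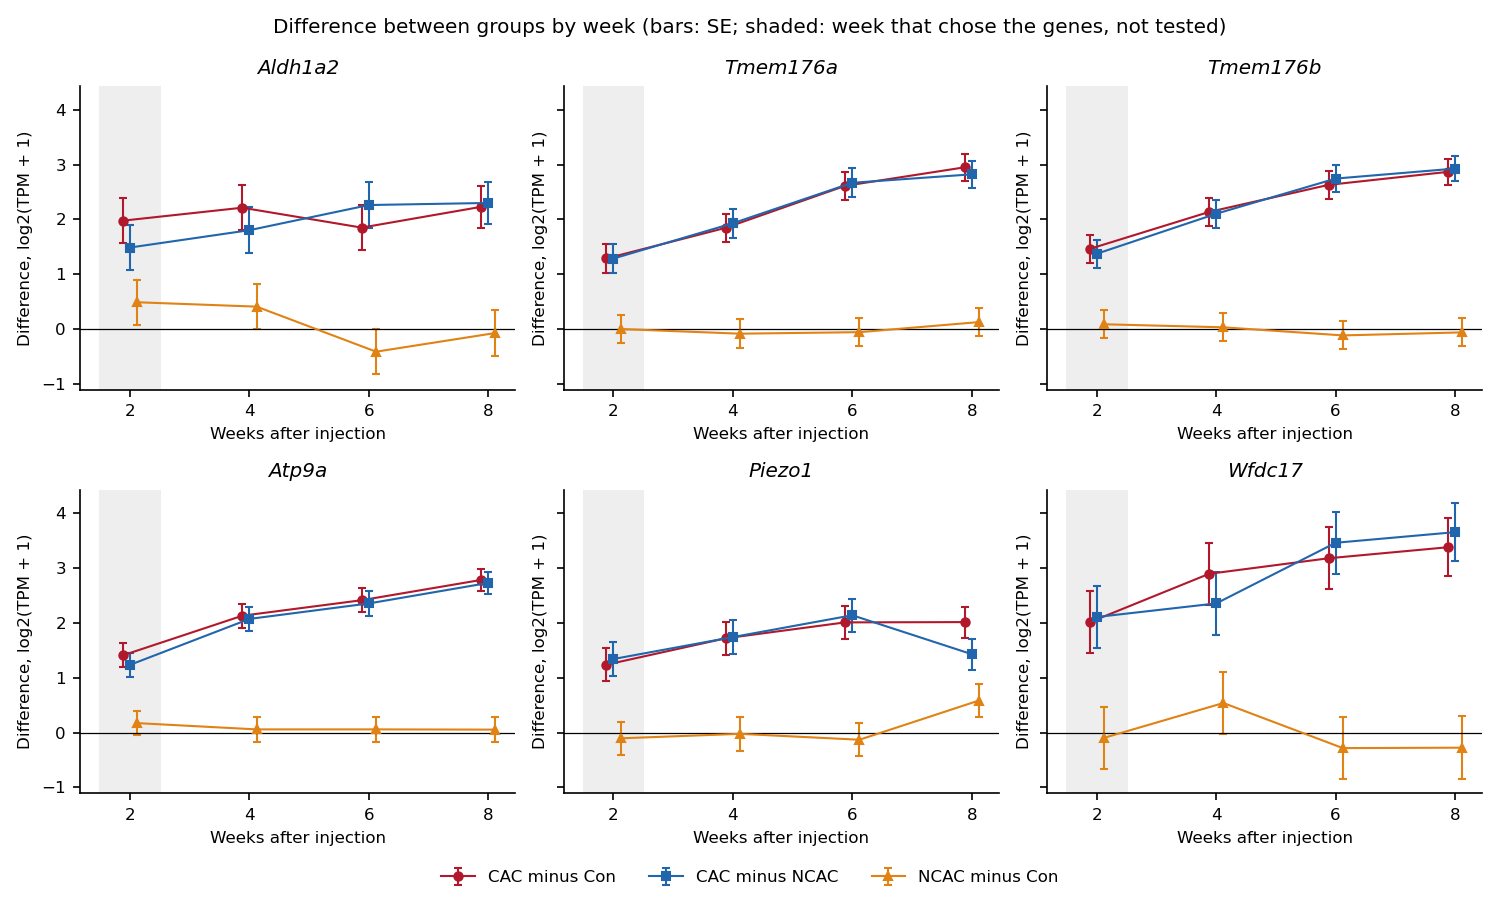
Difference in mean log2(TPM + 1) between groups by weeks after injection, with SE bars, for CAC minus Con, CAC minus NCAC and NCAC minus Con. The shaded week chose the genes and was not tested, and CAC minus Con lies between 1.72 and 3.38 at every later week while NCAC minus Con stays between -0.41 and 0.58.

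Whether the difference from Con changed after 4 weeks was asked with an F test across 4, 6 and 8 weeks. It called 0 of the 6 genes (limma, with 0.196 for Tmem176a as the lowest adjusted p and 0.914 for Wfdc17 as the highest), and 0.0162% of all genes, 2 in number. At an unadjusted p under 0.05 it took 1 of the 6 and 1993 of all genes. From 4 to 8 weeks the difference of CAC from Con moved by 1.10 (SE 0.36) for Tmem176a, 0.73 (SE 0.35) for Tmem176b, 0.65 (SE 0.30) for Atp9a, 0.48 (SE 0.77) for Wfdc17, 0.30 (SE 0.42) for Piezo1 and 0.02 (SE 0.56) for Aldh1a2. The first 3 are the genes whose call depended on the setting. With all libraries weighted by their quality the F test called them, with adjusted p of 0.00108, 0.0178 and 0.0435, along with 3317 genes in all. Without CAC replicate 2 of week 4 it called Tmem176a alone of the 6 (adjusted p = 0.042), and 912 genes in all. Change between 2 and 4 weeks could not be tested, because the 2-week values chose the genes. Side by side, the CAC means at 2, 4, 6 and 8 weeks were 10.6, 15.4, 23.8 and 29.7 TPM for Tmem176a, 35.0, 51.2, 76.3 and 92.4 TPM for Tmem176b, and 35.8, 57.3, 75.1 and 90.1 TPM for Atp9a. They were 13.3, 14.3, 15.8 and 24.4 TPM for Aldh1a2, 27.2, 34.4, 41.7 and 37.6 TPM for Piezo1, and 37.9, 28.4, 45.4 and 82.4 TPM for Wfdc17.

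In the order of the 12 group means, the 4 CAC groups held the top 4 places for each gene. The place of CAC at 2 weeks was favoured by the choice of the genes, and the share of all genes with this order was not counted. CAC at 8 weeks was first for 5 genes, and CAC at 6 weeks was first for Piezo1. Neighbouring CAC groups overlapped in range in every gene. The difference between neighbouring CAC means was larger than the larger SD at 6 over 4 weeks for Tmem176a, Tmem176b and Atp9a and at 4 over 2 weeks for Atp9a. The lowest of the CAC groups overlapped the highest other group for Aldh1a2, Tmem176a and Atp9a. Below the CAC groups, the NCAC and Con groups of all weeks followed in mixed order, and each neighbouring pair of them overlapped and differed by less than the larger SD.

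The CAC libraries at 2 weeks were unlike one another, with the same 2 libraries highest for all 6 genes. These libraries chose the genes, which favours a shared order, and the share of all genes with this order was not counted. Replicates 3 and 4 were the highest pair for each gene, with replicate 4 first. Replicates 1 and 5 were the lowest pair for 5 of them, and Piezo1 had replicates 2 and 5 lowest. Socs3, the feedback inhibitor that STAT3 induces, had 3.55, 21.5, 46.2, 66.4 and 6.09 TPM in these CAC libraries, against 1.38 to 4.99 TPM in NCAC and 1.55 to 4.49 TPM in Con, and thus had the same 2 libraries on top. Stat3 had 23.1, 26.6, 39.8, 39.3 and 24.4 TPM in CAC, against 10.1 to 11.9 TPM in NCAC and 10.7 to 13.3 TPM in Con, so that even its lowest CAC library stood apart from both groups. The highest CAC library was 3.06 (Piezo1) to 40.1 (Wfdc17) times the lowest at 2 weeks, 1.29 (Atp9a) to 4.87 (Wfdc17) times at 4 weeks and 1.48 (Atp9a) to 2.88 (Aldh1a2) times at 6 weeks. The spread was wide again at 8 weeks, at 3.38 (Tmem176b) to 17.1 (Aldh1a2) times, and replicate 4 was highest for 5 genes and replicate 1 lowest for 4. Replicate numbers name libraries within a week and do not follow 1 mouse through time.

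**Figure D4:**
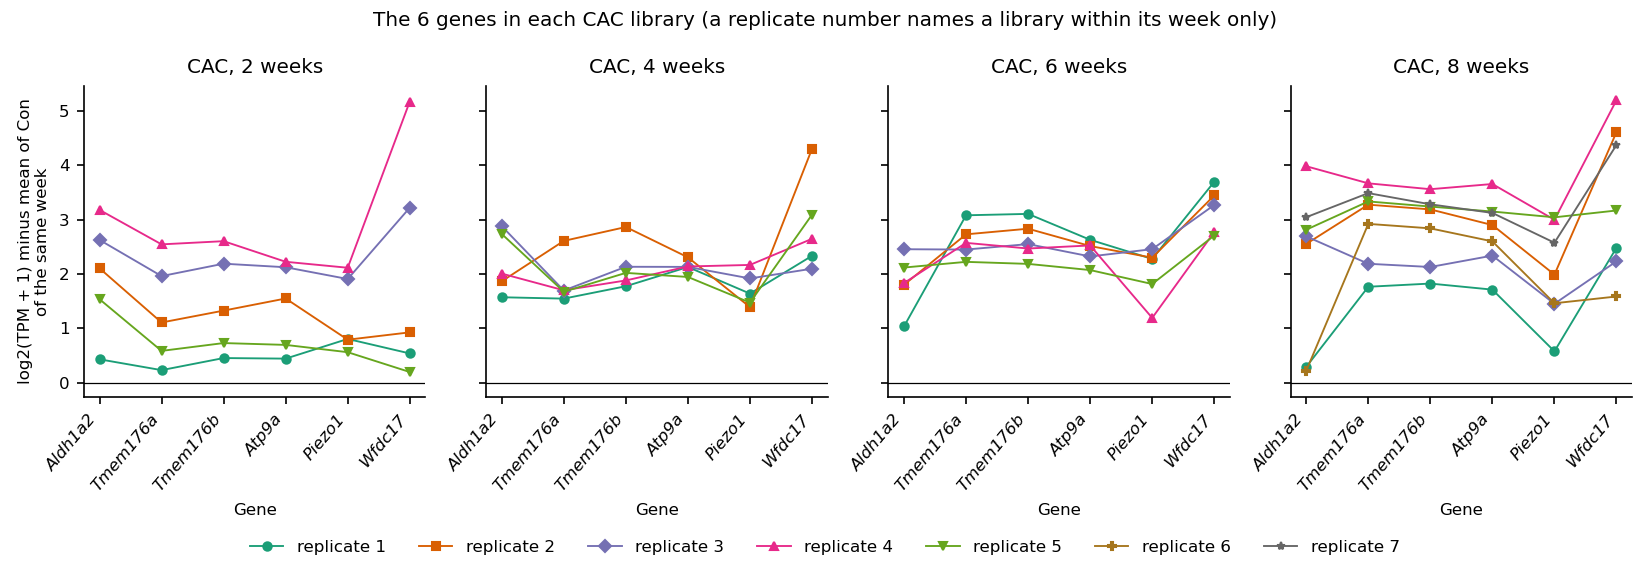
Each line is 1 CAC library, and each point its log2(TPM + 1) minus the Con mean of the same week, for the 6 genes. At 2 weeks the lines of replicates 3 and 4 lie above the other 3 for every gene, and at 8 weeks Aldh1a2 falls near 0 in replicates 1 and 6.

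Among the 12 group means, the genes most like each member were found by the mean absolute difference of centred log2 values. Tmem176a and Tmem176b were each other's nearest (0.07), and Atp9a was the next for both (0.09 each), with a range of 2.78 to 2.96 over the group means of these 3. The next after them was Lbp for all 3 (0.11 to 0.14), which encodes a lipopolysaccharide-binding protein of the acute phase. Lbp was higher in CAC than in Con by 1.99, 2.72 and 2.86 at 4, 6 and 8 weeks (SE 0.34, 0.34 and 0.32). For Piezo1 the nearest were Stat3 (0.14), the sodium channel subunit Scn3b (0.15) and the complement inhibitor Serping1 (0.15). For Wfdc17 they were C4b (0.11), a complement component, Junb (0.20), a subunit of AP-1, and Tmem176b (0.29). For Aldh1a2 they were C1qb (0.18), a subunit of complement C1q, F13a1 (0.19), a transglutaminase of clotting that macrophages also make, and Stat3 (0.19). The group means include the 2-week groups that chose the 6 genes.

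The genes around each member were read from lists of their pathways and families, whose counts stand against 23%, 51.8% and 65.3% of all genes called higher at 4, 6 and 8 weeks. Counts after rescaling stand against 7.43%, 14.4% and 22.9% of all genes called higher. Tested genes had at least 1 TPM in at least 5 libraries, which CAC libraries alone could supply, so testing favoured low genes that were high in CAC. Of 21 tested genes of retinoid metabolism and signalling other than Aldh1a2, 3 were called higher in CAC than in Con at 4 weeks, 10 at 6 weeks and 12 at 8 weeks, and 0, 1 and 2 were called lower (limma). Their median log2 difference was 0.19, 0.23 and 0.47, beside 0.17, 0.28 and 0.36 for all genes. Before rescaling, the share called higher was below that of all genes at each week. After rescaling 2, 2 and 4 of the 21 were called higher and 0, 4 and 2 lower. The rescaled share called higher was above that of all genes at 4 weeks and below it at 6 and 8 weeks. Tgm2, a transglutaminase, averaged 107 TPM in CAC and 29.2 TPM in Con at 8 weeks (log2 difference 1.78, SE 0.18, limma adjusted p = 2.28e-11). Rarres2, which encodes chemerin, averaged 48.1 TPM in CAC and 12.9 TPM in Con (1.75, SE 0.21, adjusted p = 4.28e-09), and Adh1, a retinol dehydrogenase, 67.2 TPM in CAC and 19.1 TPM in Con (1.81, SE 0.31, adjusted p = 3.40e-06). After rescaling, the differences of Tgm2, Rarres2 and Adh1 at 8 weeks were 1.37, 1.35 and 1.40. The 2 that fell at 8 weeks were the receptors Rarb and Rxrg, which are named here after their values were seen. Both were also called lower at 6 and 8 weeks after rescaling.

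Of 14 tested P4-ATPases and partners other than Atp9a, 10, 11 and 13 were called higher in CAC than in Con at 4, 6 and 8 weeks, and 0 lower. Their median log2 differences were 0.33, 0.38 and 0.56, beside 2.13, 2.41 and 2.78 for Atp9a. After rescaling 4, 5 and 8 were called higher and 0, 1 and 1 lower, beside 7.43%, 14.4% and 22.9% of all genes called higher. Atp8b1 averaged 4.09 TPM in CAC and 1.01 TPM in Con at 8 weeks (log2 difference 1.28, SE 0.14, limma adjusted p = 1.04e-09). Atp9b, the closest relative of Atp9a, averaged 13.2 TPM in CAC and 8.06 TPM in Con (0.63, SE 0.10, adjusted p = 1.04e-06; 0.25 after rescaling), and Mon2, a scaffold protein that works with the ATP9 pumps, 17.7 TPM in CAC and 10.03 TPM in Con (0.71, SE 0.13, adjusted p = 5.68e-06; 0.33 after rescaling).

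Of 8 tested mechanically gated channels and Piezo partners other than Piezo1, 2, 6 and 6 were called higher in CAC than in Con at 4, 6 and 8 weeks. The shares of all genes called higher were 23%, 51.8% and 65.3%. The medians of the 8 were 0.24, 0.39 and 0.51, beside 1.72, 2.01 and 2.01 for Piezo1 and 0.17, 0.28 and 0.36 for all genes. After rescaling 2, 3 and 4 were called higher and 0, 0 and 1 lower, beside 7.43%, 14.4% and 22.9% of all genes called higher. Tmem63b, a stretch-gated channel, averaged 48.0 TPM in CAC and 30.6 TPM in Con at 8 weeks (0.63, SE 0.08, limma adjusted p = 1.22e-08; 0.22 after rescaling). The other named genes of that list were Pkd2 (5.98 TPM in CAC, 3.52 TPM in Con, limma adjusted p = 7.59e-06) and Trpv2 (1.16 TPM in CAC, 0.602 TPM in Con, limma adjusted p = 1.15e-05). Their log2 differences at 8 weeks were 0.27 and 0.23 after rescaling.

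Of 18 MS4A superfamily genes listed, 6 beside the Tmem176 pair reached at least 1 TPM in at least 5 libraries and were tested. Of these, 5, 6 and 6 were called higher in CAC than in Con at 4, 6 and 8 weeks, with medians of 0.84, 1.22 and 1.35. Genes could reach that level through CAC libraries alone, so these counts lean toward genes high in CAC. After rescaling 4, 5 and 6 were called higher and 0 lower, beside 7.43%, 14.4% and 22.9% of all genes called higher. Ms4a4d averaged 12.7 TPM in CAC and 4.33 TPM in Con at 8 weeks (1.35, SE 0.21, limma adjusted p = 4.27e-07), Ms4a4a 6.50 TPM in CAC and 0.934 TPM in Con (1.78, SE 0.27, adjusted p = 5.14e-07), and Ms4a6b 2.56 TPM in CAC and 0.468 TPM in Con (1.19, SE 0.19, adjusted p = 6.49e-07). Among 3 further tested genes with a whey acidic protein domain, Wfdc21 was called higher in CAC than in Con at 4, 6 and 8 weeks. It averaged 38.3 TPM in CAC and 4.07 TPM in Con at 8 weeks (2.77, SE 0.43, limma adjusted p = 6.46e-07). The other 2, Wfdc1 and Wfikkn2, were not called at these times, and after rescaling Wfikkn2 was called lower at 6 and 8 weeks. In these 5 lists 0 genes were called between NCAC and Con averaged over 4, 6 and 8 weeks, where 0% of all genes were called.

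Several of the 6 genes are known from cells other than muscle fibres, and the markers of such cells differed in how they stood in CAC. In bulk muscle, more cells of a type and more RNA per cell cannot be told apart. Of 13 macrophage markers, 11, 11 and 13 were called higher in CAC than in Con at 4, 6 and 8 weeks, and 11, 8 and 10 after rescaling. Of all genes, 23%, 51.8% and 65.3% were called higher, and 7.43%, 14.4% and 22.9% after rescaling. Their summed level was 222 to 408, 292 to 497 and 294 to 940 TPM in CAC at these weeks, against 105 to 284, 98.9 to 195 and 48.7 to 193 TPM in NCAC and 61.6 to 143, 93.9 to 193 and 96.9 to 332 TPM in Con. Cd163, a scavenger receptor of resident macrophages, averaged 16.9 TPM in CAC and 2.13 TPM in Con at 8 weeks (2.34, SE 0.32, limma adjusted p = 7.58e-08). At 2 weeks the macrophage sum was 159, 168, 281, 799 and 161 TPM in the CAC libraries, against 90.3 to 137 TPM in NCAC and 80.2 to 195 TPM in Con. Replicates 3 and 4 of CAC were the highest pair here too. They were also the highest pair for the monocyte and neutrophil (12.2 and 24.1 TPM) and dendritic cell (74.5 and 95.4 TPM) sums. The same held for the fast muscle fibre sum (186637 and 186467 TPM), but not for the sums of the other marker lists, fibro-adipogenic progenitor and endothelial among them. At 4 weeks it was highest in CAC replicate 2 (408 TPM), the library in which Tmem176a, Tmem176b, Atp9a and Wfdc17 were highest. Piezo1 was lowest there (26.7 TPM) and Aldh1a2 second lowest (10.3 TPM). The sums of the monocyte and neutrophil (32.3 TPM), fibro-adipogenic progenitor (965 TPM) and endothelial (164 TPM) markers below were also highest in it. Its lymphocyte (7.04 TPM) and fast muscle fibre (159594 TPM) sums were the lowest. The part of macrophages or of other cells in the levels of the 6 genes was not tested.

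Before rescaling, the other marker lists stand against 23%, 51.8% and 65.3% of all genes called higher, and several lay at or below these shares. Their counts after rescaling stand against 7.43%, 14.4% and 22.9% of all genes. Of 7 tested monocyte and neutrophil markers, 2, 5 and 5 were called higher in CAC than in Con at 4, 6 and 8 weeks, and 2, 3 and 4 after rescaling. The summed level of all 10 genes listed was 18.2 TPM in the lowest CAC library at 8 weeks, against 15.8 TPM in the highest NCAC library and 14.5 TPM in the highest Con library. Of 9 markers of fibro-adipogenic progenitors, the connective tissue cells of muscle, 3, 3 and 5 were called higher, below the share of all genes at 6 and 8 weeks, and 3, 3 and 3 after rescaling, with a sum at 8 weeks of 674 to 1554 TPM in CAC, 305 to 688 TPM in NCAC and 405 to 618 TPM in Con. Of 9 endothelial markers, 0, 7 and 8 were called higher, and 0, 1 and 1 lower (Kdr at 8 weeks, named after its values were seen), against 0, 3 and 6 higher after rescaling, with a sum at 8 weeks of 162 to 283 TPM in CAC, 105 to 134 TPM in NCAC and 96.3 to 141 TPM in Con. Of 4 tested satellite cell markers 0, 2 and 1 were called higher, and 0 after rescaling, with a median log2 difference of 0.28 at 8 weeks, below that of all genes. The 5 satellite cell genes listed summed to 4.76 to 11.04 TPM in CAC at 8 weeks, 4.79 to 6.67 TPM in NCAC and 4.55 to 5.51 TPM in Con. Of 4 tested dendritic cell markers 1, 1 and 2 were called higher, and 0, 1 and 1 after rescaling, with a median of -0.07 at 8 weeks. The 9 dendritic cell genes listed summed to 22.04 to 116 TPM in CAC at 8 weeks, 22.8 to 66.2 TPM in NCAC and 40.2 to 362 TPM in Con. For lymphocytes, Ighm was the single marker that passed the filter and it fell, to 14.5 TPM in CAC at 8 weeks, against 96.4 TPM in Con (log2 difference -3.16, SE 0.47, limma adjusted p = 2.48e-07), and the T cell gene Cd3e was listed at 0 in 51 of 62 libraries. Of 2 tested mesothelial markers and 2 tested melanocyte markers, 1 each (Msln and Mitf) was called higher in CAC than in Con at 8 weeks and 0 at 4 and 6 weeks, and 0 at each week after rescaling. Defining mesothelial genes were near 0, with Wt1 at most 0.0578 TPM and Upk3b at 0 in 43 libraries, and so were those of melanocytes, with Tyr at 0 in 57 libraries and Tyrp1 at most 0.11 TPM. Muscle fibre genes were abundant in all 62 libraries, with Myh4 at 7846 to 17976 TPM and Acta1 at 28002 to 59641 TPM. Of 9 fast fibre genes, 1, 2 and 2 were called higher in CAC than in Con at 4, 6 and 8 weeks and 0, 2 and 3 lower, against 0 higher and 0, 4 and 6 lower after rescaling, with a summed level at 8 weeks of 132859 to 181414 TPM in CAC, 165161 to 203428 TPM in NCAC and 152079 to 176528 TPM in Con.

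**Figure D5:**
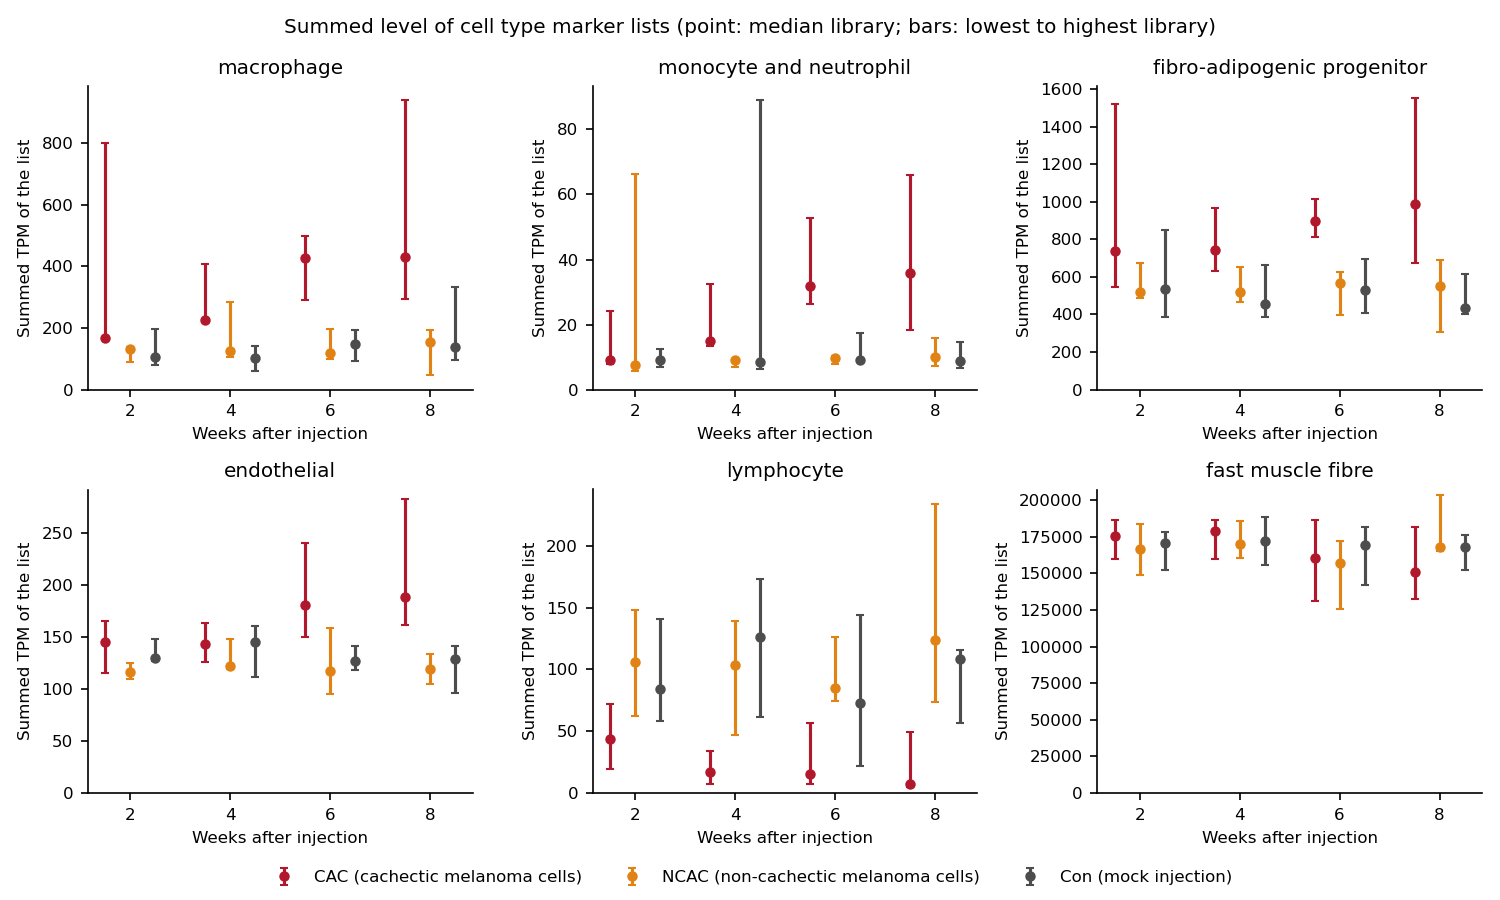
Summed TPM of 6 marker lists by weeks after injection for CAC, NCAC and Con from left to right. Points are the median library and bars run from the lowest to the highest library, and the macrophage sum of CAC lies above that of Con at 4 and 6 weeks without overlap.

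The libraries were alike in depth, with an estimated read total of 39.6 to 48.4 M (median 46.2 M). The share of TPM from mitochondrial DNA at 8 weeks was 24.2% ± 3.53 in CAC (SD, n = 7), against 32.2% ± 3.08 in NCAC and 33.5% ± 3.02 in Con (SD, n = 5 each). At 2 weeks the share was 29.7% to 34.3% in CAC, lowest in replicates 4 and 3, against 34.6% to 37.9% in NCAC and 33.1% to 35.2% in Con, and its part in the results was not tested.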

How the data were processed

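The authors deposited 1 table of TPM values for 47643 gene symbols, 1 column for each of 62 libraries. Per the labels, libraries were made with a stranded poly(A) kit, sequenced on an Illumina NovaSeq and processed against mm10. No aligner, counting program or annotation is named there. Groups came from each sample's description, which matched its title; a treatment tag that names cachectic cells for every sample was not used. The labels call the replicates biological but do not say whether each is a separate mouse, so p-values measure the spread between these libraries.

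The 6 genes and all lists were chosen with earlier results of these data known. Genes with at least 1 TPM in at least 5 libraries (12364) entered limma 3.58.1 (R 4.3.3) on the log2(TPM + 1) scale, as 1 model of 12 group means with a variance trend. Tests were two-sided, with Benjamini-Hochberg adjustment over all 12364 genes and a threshold of 0.05. Comparisons at 2 weeks were not tested for the 6 genes. The fit was tested on simulated data. Named genes were the 6, up to 3 called genes of lowest adjusted p at 8 weeks per list, 3 nearest genes per member, and Stat3 and Socs3 at 2 weeks. CAC against Con and CAC against NCAC share the CAC libraries, and NCAC against Con shares libraries with both. Depth was estimated from the steps between low TPM values and GENCODE M21 exon lengths: 76.8% to 79.6% of low values per library lay within 0.02 of whole reads, and intervals from it cover counting error only. Sequences are RefSeq windows. Python 3.11.15 drew the figures with matplotlib 3.10.9.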

Additional observations from a re-analysis of the deposited data

Results flagged for a closer look

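Of the 72 sets of libraries formed by the 6 genes in the 12 groups, 7 held a library set far apart from the others of its group. The 6 genes were read in the same libraries, so the sets are not independent and no chance rate is set beside this count. In CAC at 4 weeks, replicate 2 stood high for 3 genes, with 25.7 TPM of Tmem176a (next 13.2 TPM), 82.2 TPM of Tmem176b (next 49.1 TPM) and 65.2 TPM of Wfdc17 (next 27.6 TPM). In CAC at 2 weeks, replicate 4 had 139 TPM of Wfdc17 (next 35.3 TPM). The other libraries that stood apart were outside CAC: NCAC replicate 1 at 2 weeks with 11.05 TPM of Piezo1 (next 8.86 TPM), Con replicate 2 at 6 weeks with 15.7 TPM of Piezo1 (next 9.26 TPM) and Con replicate 3 at 2 weeks with 2.20 TPM of Tmem176a (next 3.06 TPM).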

How the results depend on the processing

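Tried in turn were median-ratio scaling, array weights, a replicate block, a pseudocount of 0.1, a filter at 5 TPM or none, fits without mitochondrial genes, fits of just the groups set against each other, and leaving out each library. For the 6 CAC comparisons at 4, 6 and 8 weeks the number of genes called stayed at 6 of 6 under each of these, except that Wfdc17 against NCAC at 4 weeks had an adjusted p of 0.0559 without CAC replicate 2. The F test across weeks called 3 of the 6 with array weights, and 0 to 1 with a library left out, the 1 without CAC replicate 2 of week 4. Over all genes its count was 2, 47 with rescaling, 3317 with array weights, 0 in the fit of the groups it uses, and 2 to 912 with a library left out (912 without CAC replicate 2 of week 4). Between NCAC and Con at 4 weeks 18 and 15 genes were called without NCAC replicates 1 and 5, against 0, and at most 2 at 6 and 8 weeks under any setting. The averaged NCAC minus Con difference is near 0 and changed sign: for Aldh1a2 it was 0.0105 with rescaling and 0.0963 with array weights, for Tmem176a 0.0337 with rescaling, 0.0126 without mitochondrial genes and 0.00611 with array weights, and for Wfdc17 0.0356, 0.0129 and 0.175 under the same settings. With a library left out it ran from -0.0915 to 0.0783 for Aldh1a2, -0.0361 to 0.0327 for Tmem176a and -0.108 to 0.069 for Wfdc17. Genes called in either direction between CAC and Con numbered 3134, 7069 and 8755 at 4, 6 and 8 weeks, against 1883, 3915 and 5585 with rescaling and 1685 and 4680 at 4 and 6 weeks without mitochondrial genes. At 4 weeks they numbered 1253 in the fit of these groups alone and 758 without CAC replicate 2. Between CAC and NCAC they numbered 2435, 8500 and 8939, against 1000, 5125 and 5560 with rescaling. At 4 weeks that count was 1585 with no filter, 758 without mitochondrial genes, 429 in the fit of these groups alone, 274 without CAC replicate 2, and 1273, 897 and 1228 without NCAC replicates 1, 3 and 4. The cause of these changes was not tested.

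Replicate numbers did not pair the libraries: of 60 same-numbered pairs 16 deviated together with a correlation over 0.1, and the median was -0.0021. With the replicate block, 6 of the 6 genes were called in each CAC comparison, 0 in NCAC against Con and 0 by the F test. Counting error limits the low values of Wfdc17 and Aldh1a2 outside CAC.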
